A study of Mus musculus with 14 samples.

Results

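The mRNAs considered here are 10 transcripts of the mitochondrial genome: mt-Nd1, mt-Nd2, mt-Nd4, mt-Nd5 and mt-Nd6 of complex I, mt-Cytb of complex III, mt-Co1, mt-Co2 and mt-Co3 of complex IV, and mt-Atp6 of the ATP synthase. They were chosen by gene symbol, and all 10 were matched among the 14837 genes of the input table. All 10 also passed the filter on low counts, which left 11317 genes to test. The mitochondrial genome encodes 3 further mRNAs, mt-Atp8, mt-Nd3 and mt-Nd4l, which are described beside them.

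The study compared mouse muscle stem cells (MuSCs) from skeletal muscle in 2 groups, control MuSCs and Lin28a+ MuSCs. The paper does not state the genotype of the control MuSCs, and its methods describe MuSCs kept in culture on Matrigel. Lin28a is an RNA-binding protein of early embryonic cells. Lin28a+ MuSCs were sorted by flow cytometry from Lin28a-CreERT2; LSL-tdTomato mice, in which the Lin28a promoter drives an inducible Cre and recombined cells become fluorescent, so the mark records activity of that promoter and not the protein itself. Age and sex of the animals, and whether the libraries of a group come from separate animals or cultures, are not given in the sources used here, so p-values measure only the spread between these libraries. RNA-seq of the input covered 2 control libraries and 2 Lin28a+ libraries, and immunoprecipitated RNA (RIP) was sequenced with antibodies against m6A, Igf2bp3 and Lin28a. The input was mRNA enriched on oligo(dT) beads. Mitochondrial mRNAs can be recovered on such beads where they carry a short poly(A) tail. How each of them, mt-Nd6 included, came to be in the input was not tested.

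In the input table the Lin28a+ columns are headed as m6A-RIP libraries, and they were taken as input because the labels give this table to the input samples. Every comparison of levels below rests on that reading, since columns of m6A-RIP would compare a pull-down with an input. Over 7950 genes, Pearson's r of log2 CPM between these columns and the Lin28a+ m6A-RIP libraries was 0.518 to 0.523, and between the control input and control m6A-RIP it was 0.510 to 0.511. Between these columns and the control input it was 0.949 to 0.950. The correlations are across genes, which are not independent replicates, and the m6A-RIP values are sums over listed rows.

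Mitochondria keep a small circular genome that is copied and transcribed independently of the nucleus. Its heavy and light strands are transcribed by a dedicated polymerase (Polrmt) with the factors Tfam and Tfb2m into long precursors, which are cut at the tRNAs between the genes into mature mRNAs. The mRNAs are then stabilised by the Lrpprc-Slirp complex and translated by mitochondrial ribosomes, whose proteins come from the nucleus. Each product is a core membrane subunit of a respiratory complex that is completed by nuclear-encoded subunits, and only complex II is built without a mitochondrial product. In muscle, these complexes supply the ATP of oxidative fibres, while muscle stem cells change their use of them as they leave quiescence.

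The 10 mRNAs took a smaller share of the input in Lin28a+ MuSCs than in control MuSCs. They held 16.6% and 16.8% of the summed values in control replicates 1 and 2. In the Lin28a+ libraries they held 11.8% in the library listed first and 12.0% in the library listed second. The groups did not overlap, and the mean share was 16.7% ± 0.171 (SD, n = 2) in control and 11.9% ± 0.181 (SD, n = 2) in Lin28a+ MuSCs. The difference of -4.80 percentage points gave p = 0.333 in a two-sided exact permutation test, which is the smallest p that 2 libraries against 2 can give. With the 3 further mRNAs included, the shares were 17.0% and 17.2% in control and 12.1% and 12.3% in Lin28a+ MuSCs.

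**Figure D1:**
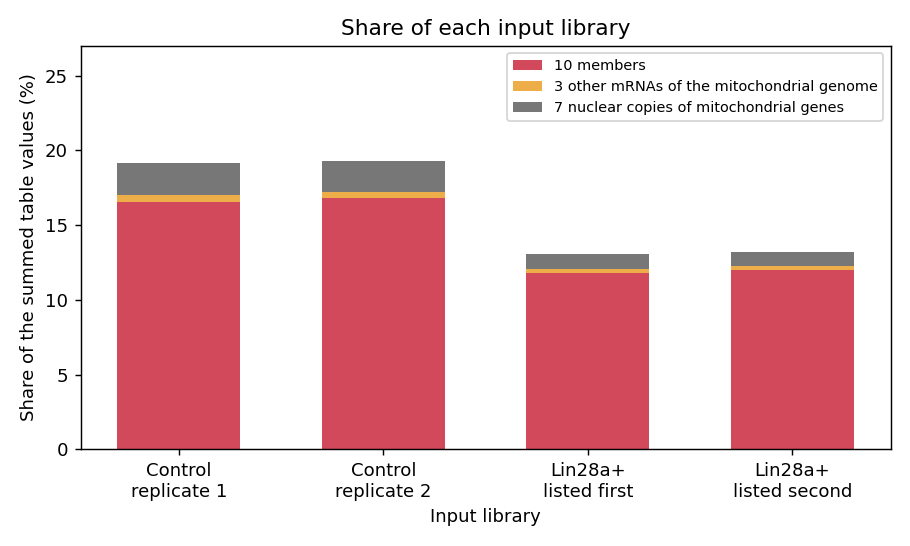
Share of the summed values of each input library (percent, y axis) taken by the 10 mRNAs, the 3 further mitochondrial mRNAs and 7 nuclear copies of mitochondrial genes, stacked for the 4 libraries (x axis). The 10 mRNAs reach 16.6% and 16.8% in control and 11.8% and 12.0% in Lin28a+ MuSCs, and the nuclear copies add about 2% in control and under 1% in Lin28a+ MuSCs.

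Of the 10 mRNAs, 9 were lower in Lin28a+ MuSCs and 0 were higher at an adjusted p under 0.05 in edgeR's quasi-likelihood test. Among all 11317 genes tested, 28.7% were lower and 28.1% higher (56.8% in either direction), so a call by itself was common in this comparison. The median log2 fold change of the 10 mRNAs was -0.53, against 0.01 for the 11297 nuclear genes tested. The exception, mt-Co2, did not pass the test. Each single change was moderate, since the log2 fold changes of the 10 mRNAs lay between the 14.7th and the 44.2nd percentile of all genes tested. In these bulk libraries, fewer mitochondrial transcripts per cell and fewer cells rich in them cannot be told apart. Because every value is relative to its library, more nuclear mRNA per cell cannot be told apart from either.

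Values below are counts per 1000000 of the summed table (CPM), given for control replicates 1 and 2 and then for the Lin28a+ libraries in the order listed. Fold changes are on the log2 scale, Lin28a+ minus control, each with its standard error (SE) from the fit. Positions are those of RefSeq on the mouse mitochondrial chromosome (GRCm38), where each of these genes is a single exon.

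Complex I (NADH dehydrogenase) takes electrons from NADH, and its proton-pumping membrane arm is built on the mitochondrial ND subunits. All 5 of its mRNAs among the 10 fell, by 22.0% to 37.9% of the mean CPM. The largest fall of the 5 was that of mt-Nd4 (ENSMUSG00000064363, positions 10167 to 11544), with 7628 and 7745 CPM in control against 4715 and 4834 CPM in Lin28a+ MuSCs. Its log2 fold change was -0.72 (SE 0.021, adjusted p = 1.0e-05). Levels of mt-Nd2 (positions 3914 to 4951) were 6874 and 7122 CPM in control against 4808 and 4851 CPM in Lin28a+ MuSCs, a log2 fold change of -0.56 (SE 0.020). For mt-Nd1 (positions 2751 to 3707), the subunit nearest the quinone site, the libraries gave 13656, 13836, 10076 and 10240 CPM, a log2 fold change of -0.47 (SE 0.019). The smallest fall in complex I was that of mt-Nd5 (positions 11742 to 13565), from 9619 and 9851 CPM to 7503 and 7684 CPM, with a log2 fold change of -0.39 (SE 0.020, adjusted p = 5.0e-05). In each of these 4 genes both Lin28a+ libraries lay below both control libraries.

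The gene of mt-Nd6 (positions 13552 to 14070) is the only mRNA gene on the light-strand side of the genome, so its RNA comes from a different precursor than the other 9. It was present at 4043 and 3974 CPM in control against 2957 and 2869 CPM in Lin28a+ MuSCs, a log2 fold change of -0.49 (SE 0.030, adjusted p = 8.5e-05). Its change therefore lay within the range of the heavy-strand mRNAs. Its 3' end overlaps that of mt-Nd5 on the opposite strand, and whether the counting used strand is not stated, so antisense RNA of the heavy-strand precursor and mt-Nd6 itself cannot be told apart in these values.

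Complex III passes electrons on to cytochrome c, and cytochrome b is its sole mitochondrial subunit. Its mRNA, mt-Cytb (positions 14145 to 15288), was measured at 14752 and 15053 CPM in control against 10253 and 10310 CPM in Lin28a+ MuSCs. The groups did not overlap, and the log2 fold change was -0.56 (SE 0.017, adjusted p = 1.1e-05).

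Complex IV (cytochrome c oxidase) reduces oxygen, and its catalytic core consists of the products of mt-Co1, mt-Co2 and mt-Co3. The mRNA mt-Co1 (ENSMUSG00000064351, positions 5328 to 6872) ranked 1st of all 14837 genes by mean CPM. Its level was 64235 and 65735 CPM in control against 44119 and 44957 CPM in Lin28a+ MuSCs, a fall of 31.5% of the mean with a log2 fold change of -0.57 (SE 0.016, adjusted p = 8.9e-06). The mRNA mt-Co3 (positions 8607 to 9390) stood at 19625 and 20812 CPM in control against 15571 and 15309 CPM in Lin28a+ MuSCs. Its log2 fold change was -0.42 (SE 0.025, adjusted p = 7.4e-05). Both mRNAs were lower in both Lin28a+ libraries than in either control library.

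For mt-Co2 (positions 7013 to 7696), which encodes the subunit that receives electrons from cytochrome c, the libraries of the groups were interleaved. Control replicates 1 and 2 gave 9807 and 8292 CPM, and the Lin28a+ libraries gave 7994 and 9510 CPM. The highest value was that of a control library and the lowest that of a Lin28a+ library, with the other two in reversed order between them. The log2 fold change was -0.08 (SE 0.113, adjusted p = 0.594). Its SE was more than 3 times that of any other of the 10 mRNAs. Whether reads of mt-Co2 were divided with the nuclear copies described below was not tested, and its values are not all whole numbers. Its direction rested on single libraries, since the log2 fold change became 0.06 without control replicate 1 and 0.04 without the Lin28a+ library listed first, and neither passed the test.

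Complex V, the ATP synthase, turns the proton gradient into ATP, and the product of mt-Atp6 (ENSMUSG00000064357, positions 7927 to 8607) forms its proton channel. This mRNA and mt-Nd4 showed the largest falls of the 10, at 38.0% and 37.9% of the mean CPM. Control libraries gave 15491 and 15721 CPM and Lin28a+ libraries 9671 and 9666 CPM, with a log2 fold change of -0.72 (SE 0.018, adjusted p = 6.8e-06). A nuclear pseudogene, Gm10925, has the same annotated length (681 bases) and carries mt-Atp6 among its RefSeq synonyms. With its values added to those of mt-Atp6 the libraries gave 16226, 16170, 9751 and 9778 CPM, and the log2 fold change was -0.76 (SE 0.022).

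**Figure D2:**
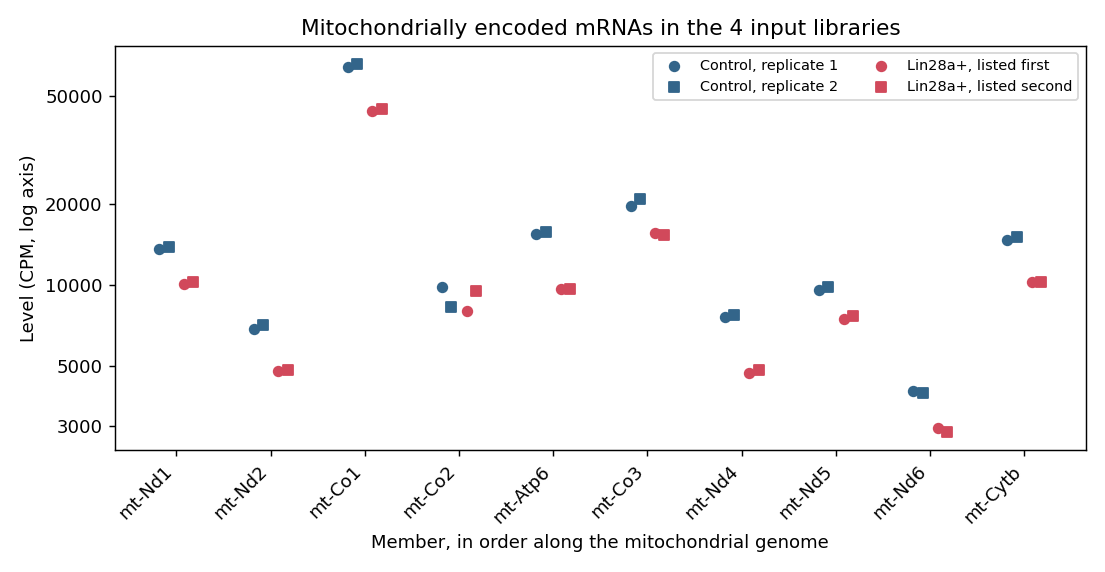
Level of each of the 10 mRNAs in the 4 input libraries (CPM, log axis), in the order of the genes along the mitochondrial genome. The Lin28a+ points lie below the control points for 9 mRNAs, while the 4 points of mt-Co2 are interleaved between 7994 and 9807 CPM.

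The 3 further mitochondrial mRNAs were also lower in Lin28a+ MuSCs. Of these, mt-Atp8 shares a bicistronic mRNA with mt-Atp6 and fell by 0.80 on the log2 scale (SE 0.117), beside a log2 fold change of -0.72 (SE 0.018) for mt-Atp6. Likewise mt-Nd4l shares an mRNA with mt-Nd4 and fell by 0.65 (SE 0.042), beside -0.72 (SE 0.021) for mt-Nd4. In both pairs the difference between the partners was smaller than 2 SE of the less precise value. The mRNA mt-Nd3 had 839 and 884 CPM in control against 789 and 692 CPM in Lin28a+ MuSCs, a log2 fold change of -0.25 (SE 0.063, adjusted p = 0.0193).

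**Figure D3:**
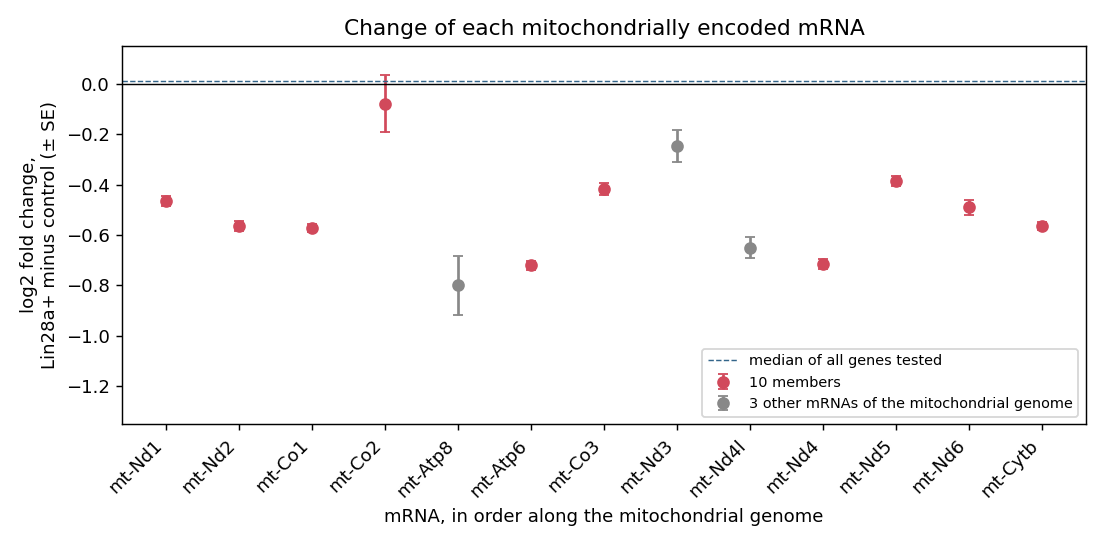
Log2 fold change of each mitochondrially encoded mRNA (Lin28a+ minus control, y axis, bars are SE) in genome order (x axis), with the 10 mRNAs in red, the 3 further ones in grey and the median of all genes tested as a dashed line. All points but mt-Co2 lie between -0.80 and -0.25, and mt-Atp8, mt-Atp6 and mt-Nd4 lie lowest, at -0.80, -0.72 and -0.72.

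The 10 mRNAs did not fall to the same extent. When each was read against the sum of the 10 as the library size, in an additional fit chosen after the other values had been seen, mt-Atp6 (-0.20, SE 0.025, adjusted p = 5.6e-04) and mt-Nd4 (-0.20, SE 0.024, adjusted p = 5.3e-04) fell further than the sum on the log2 scale. Relative to that sum, mt-Nd5 (0.13, SE 0.024, adjusted p = 0.0033), mt-Co3 (0.10, SE 0.034, adjusted p = 0.0377) and mt-Co2 (0.44, SE 0.104, adjusted p = 0.0104) were higher. The other 5, namely mt-Nd1, mt-Nd2, mt-Nd6, mt-Cytb and mt-Co1, lay between -0.06 and 0.05 relative to the sum and did not pass the test. Expressed as shares of the 10, mt-Atp6 went from 9.35% in both control libraries to 8.22% and 8.04%, and mt-Nd4 from 4.60% and 4.61% to 4.01% and 4.02%. The share of mt-Nd5 went from 5.80% and 5.86% to 6.38% and 6.39%. The share of mt-Co1 stayed the largest in every library, at 38.8% and 39.1% in control and 37.5% and 37.4% in Lin28a+ MuSCs.

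Per kilobase of gene length, levels of the 10 mRNAs spanned 7.88-fold in control and 8.32-fold in Lin28a+ MuSCs. In control MuSCs the order of mean CPM per kilobase was mt-Co1 (42062), mt-Co3 (25789), mt-Atp6 (22917), mt-Nd1 (14364), mt-Co2 (13231), mt-Cytb (13026), mt-Nd6 (7723), mt-Nd2 (6742), mt-Nd4 (5578) and mt-Nd5 (5337). Of the neighbours in this order, mt-Nd1 and mt-Co2, and mt-Co2 and mt-Cytb, overlapped between control libraries, and the other neighbours did not. In Lin28a+ MuSCs mt-Co2 (12795) stood above mt-Nd1 (10614), and mt-Nd5 (4163) stood above mt-Nd4 (3465), while the other places in the order were as in control. No neighbours overlapped between the 2 Lin28a+ libraries. Values of the nuclear copies described below were not reassigned to the mitochondrial genes, so the order holds for the deposited values only. Many nuclear genes in the table have decimals that a mean over their transcripts would give, so levels per kilobase were compared among the mitochondrial genes only.

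Several nuclear genes are near-identical copies of stretches of the mitochondrial genome, and reads could be divided between them and the mitochondrial genes. Of 12 such copies listed, 7 were in the input table, and they held 2.13% and 2.12% of the summed values in control and 0.984% and 0.889% in Lin28a+ MuSCs. By count, 5 of the 7 were lower and 0 higher, against 28.7% and 28.1% of all genes tested. The pseudogene Gm28661 had 9075 and 10348 CPM in control against 4474 and 2960 CPM in Lin28a+ MuSCs, a log2 fold change of -1.41 (SE 0.191, adjusted p = 0.0015). The pseudogene Gm29216 went from 6476 and 6583 CPM to 3606 and 3788 CPM (log2 fold change -0.85, SE 0.028). Another copy, Gm28437, went from 3718 and 2625 CPM to 773 and 1064 CPM (-1.82, SE 0.220). Gm10925 showed the largest difference, -2.65 (SE 0.319), from 734 and 448 CPM to 79.2 and 112 CPM. Neither the copies nor the mitochondrial genes can be read in isolation from these values, but their directions were the same, and adding the copies widened the difference in share to -5.99 percentage points.

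Nuclear-encoded subunits of the same complexes moved in the opposite direction. Of 77 tested in complexes I, III, IV and V, 67 were higher and 3 lower in Lin28a+ MuSCs, against 28.1% higher and 28.7% lower among all genes tested, and their median log2 fold change was 0.41. With complex II, 71 of 81 were higher. In complex I, 34 of 36 nuclear subunits were higher and 0 lower, including Ndufs8, an iron-sulphur subunit, which rose from 80.4 and 79.6 CPM to 144 and 147 CPM (log2 fold change 0.84, SE 0.033). In complex III, 8 of 9 were higher, among them Cyc1, cytochrome c1 (0.79, SE 0.035). In complex V, 15 of 17 were higher, among them Atp5b, the catalytic subunit, which rose from 949 and 975 CPM to 1421 and 1448 CPM (0.55, SE 0.021). In complex II, which has no mitochondrial subunit, 4 of 4 were higher, with Sdhb at 0.78 (SE 0.024).

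Of the 15 nuclear genes of complex IV tested, 10 were higher, such as Cox5b (0.49, SE 0.027), and 3 were lower, a share below the 28.7% of all genes tested. The lower ones were Cox8b (-0.89, SE 0.121) and Cox7a1 (-0.76, SE 0.083), both heart and muscle isoforms, and Cox7a2l (-0.12, SE 0.034), a supercomplex assembly factor. DESeq2 called 1 of the 3 lower, Cox8b (adjusted p = 0.0047), and not Cox7a1 (adjusted p = 0.184) or Cox7a2l (adjusted p = 0.285). Both muscle isoforms were scarce, with 17.0 to 36.3 CPM for Cox8b and 6.71 to 11.6 CPM for Cox7a1.

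**Figure D4:**
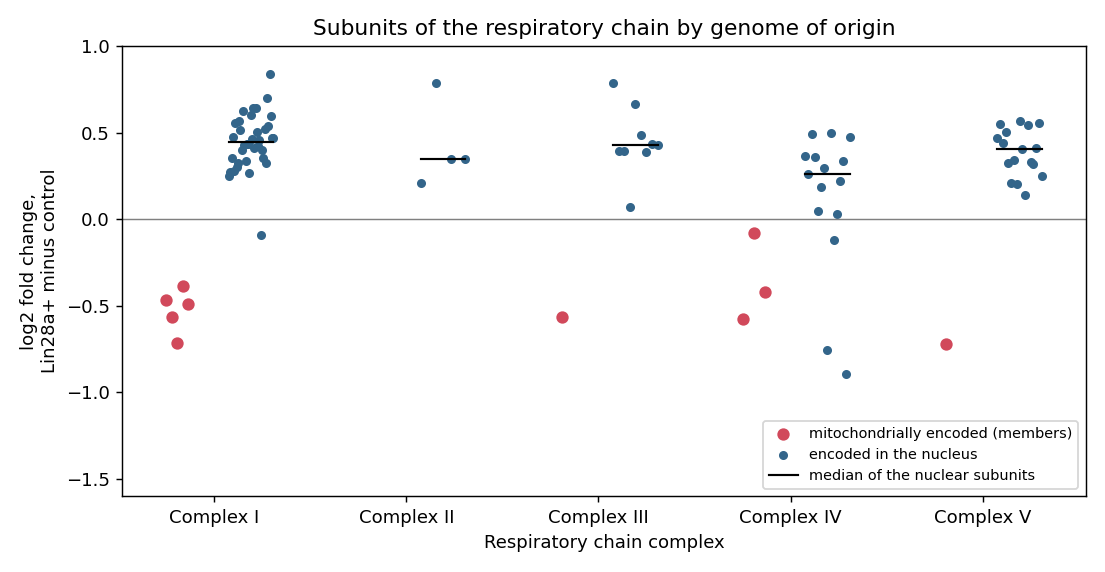
Log2 fold change (Lin28a+ minus control, y axis) of respiratory chain subunits, by complex (x axis), with the 10 mitochondrially encoded mRNAs in red, nuclear-encoded subunits in blue and the median of the latter as a black line. The red points lie between -0.72 and -0.08 and the medians of the nuclear subunits between 0.26 and 0.45.

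Nuclear genes of like abundance were then read in the same way. Apart from the 7 nuclear copies above, 17 had a mean CPM at or above that of mt-Nd6, the least abundant of the 10 (3461 CPM). Of these 17, 12 were higher and 2 lower, against 28.1% and 28.7% of all genes tested, and the median log2 fold change was 0.25. Among the 12, Gm12895 and Gm12896 have identical values, and counted once they leave 11 higher of 16. With the copies Gm28661 and Gm29216, which reach the same level, 12 of 19 were higher and 4 lower (median 0.17). Apart from the copies, the 2 lower ones were Chrna1, the acetylcholine receptor alpha subunit (-0.92, SE 0.021), and the elongation factor Eef1a1 (-0.08).

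**Figure D5:**
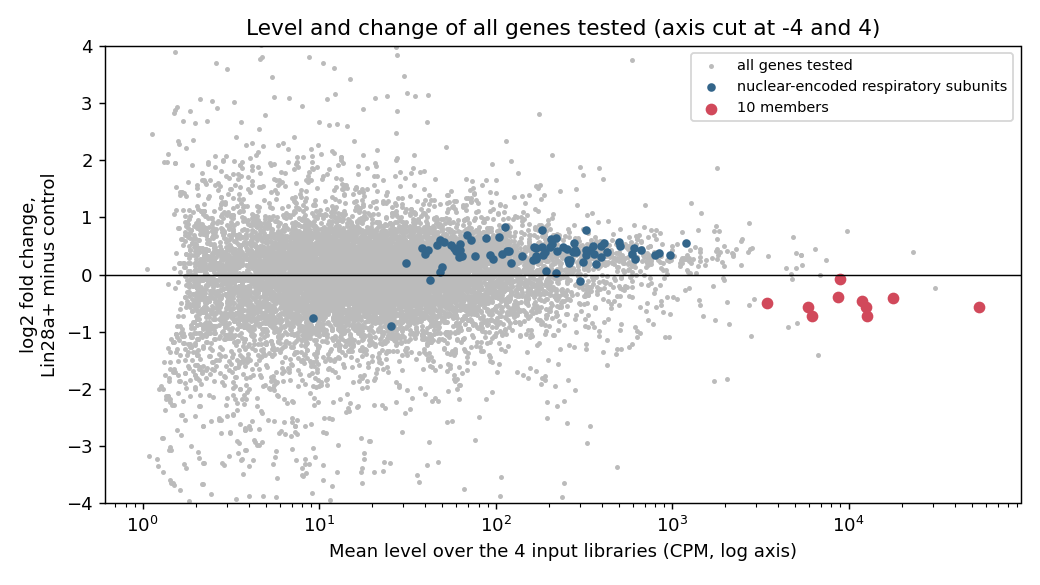
Mean CPM over the 4 input libraries (log axis, x) and log2 fold change (Lin28a+ minus control, y) of the 11317 genes tested, with nuclear-encoded respiratory subunits in blue and the 10 mitochondrial mRNAs in red. The 55 genes with larger changes lie outside the plotted range, and the red points lie at the abundant end and below 0.

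Nuclear genes that maintain and express the mitochondrial genome were then read from lists. Of 134 tested, 87 were higher and 4 lower in Lin28a+ MuSCs (median log2 fold change 0.35), against 28.1% and 28.7% of all genes tested. With regulators of mitochondrial biogenesis and assembly factors of the respiratory complexes added, 104 of 184 were higher and 12 lower, of which DESeq2 called 38 higher and 2 lower. Most of the higher ones were proteins of the mitochondrial ribosome, with 70 of 79 higher and 1 lower (Mrps6, -0.25, SE 0.062, not called by DESeq2). Mrps16, for example, rose from 80.0 and 79.9 CPM to 146 and 146 CPM (0.84, SE 0.031), and Mrpl37 rose by 0.67 (SE 0.041).

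For replication and transcription of the mitochondrial genome, 5 of 18 genes were higher, a share near the 28.1% of all genes tested, and 1 was lower, against 28.7% of all genes. The RNA polymerase Polrmt was low, at 6.95 and 6.89 CPM in control against 11.5 and 8.83 CPM in Lin28a+ MuSCs, and was higher (0.53, SE 0.145, adjusted p = 0.0259). The gene that was lower, Tfb2m, encodes the factor with which Polrmt opens promoters. It had 21.1 and 21.4 CPM in control against 13.7 and 12.0 CPM in Lin28a+ MuSCs (-0.76, SE 0.079, adjusted p = 5.5e-04). Tfam, which packages the genome and starts transcription, had 21.4 and 21.1 CPM in control against 24.0 and 24.2 CPM in Lin28a+ MuSCs and did not pass the test (0.15, SE 0.057, adjusted p = 0.325). Mrpl12, a ribosomal protein that also binds Polrmt, was higher (0.60, SE 0.026). DESeq2 called Mrpl12, but neither Polrmt (adjusted p = 0.446) nor Tfb2m (adjusted p = 0.0536).

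Among genes of RNA processing and stability, 11 of 26 were higher and 1 lower, against 28.1% and 28.7% of all genes tested. The lower gene was Lrpprc, which keeps mitochondrial mRNAs stable and polyadenylated. Its level was 46.0 and 47.1 CPM in control against 38.8 and 36.8 CPM in Lin28a+ MuSCs, with no overlap (-0.33, SE 0.049, adjusted p = 0.0021). Its partner Slirp went the other way, from 42.6 and 41.0 CPM to 52.0 and 49.2 CPM (0.25, SE 0.056, adjusted p = 0.0139). Fastk (0.90, SE 0.062), whose mitochondrial isoform acts on mt-Nd6 mRNA, and Ptcd2 (0.59, SE 0.046), required for processing of mt-Cytb RNA, were higher. DESeq2 called Fastk and Ptcd2, but neither Lrpprc (adjusted p = 0.221) nor Slirp (adjusted p = 0.415).

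Translation factors gave 3 higher and 1 lower of 13, both shares below those of all genes tested (28.1% and 28.7%), with the elongation factor Tufm higher (0.40, SE 0.034) and the elongation factor Gfm1 lower (-0.19, SE 0.041). Of the 9 regulators of mitochondrial biogenesis 3 were higher and 3 lower, close to the shares over all genes. Nrf1 (0.61), Esrra (0.35) and Ppargc1a (0.70, adjusted p = 0.0478), all activators of nuclear genes for mitochondria, were higher, although Ppargc1a stood at only 2.82 and 3.08 CPM in control against 4.86 and 4.71 CPM in Lin28a+ MuSCs. Gabpa (-0.69), Ppargc1b (-0.33) and Yy1 (-0.18) were lower. Assembly factors of the respiratory complexes gave 14 higher and 5 lower of 41, against 28.1% and 28.7% of all genes, among them Bcs1l (0.71), which inserts the iron-sulphur protein into complex III, and Cox15 (-0.35), which makes heme A for complex IV. Of the genes named for these 3 lists, DESeq2 called Tufm, Gabpa and Bcs1l, and it did not call Gfm1, Nrf1, Esrra, Ppargc1a, Ppargc1b, Yy1 or Cox15.

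The nuclear genes whose profile over the 4 input libraries lay nearest to that of the summed 10 mRNAs were Ehbp1l1, Dnajc25 and Hsp90b1. Their Euclidean distances on centred log2 CPM were 0.017, 0.020 and 0.021, out of 11297 nuclear genes compared. Hsp90b1, for example, had 270 and 275 CPM in control against 195 and 197 CPM in Lin28a+ MuSCs. With 4 libraries in 2 groups, such nearness mostly records a like size of the difference between groups.

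Markers of muscle stem cells and of other cells of muscle were read beside these results. Of the myogenic markers, 13 of 15 were in the table, and 3 were higher and 7 lower in Lin28a+ MuSCs, against 28.1% and 28.7% of all genes tested. Pax7, the defining factor of muscle stem cells, had 139 and 154 CPM in control and rose to 194 and 190 CPM. Myod1, a defining factor of myoblasts, was at 4542 to 4775 CPM in all 4 libraries. Myf5, a factor of undifferentiated myoblasts, fell from 441 and 464 CPM to 198 and 202 CPM, while Myog, a factor of differentiating myoblasts, rose from 748 and 774 CPM to 2785 and 2837 CPM. Des, the muscle intermediate filament protein desmin, fell from 1644 and 1728 CPM to 1195 and 1196 CPM. Megf10 fell from 398 and 400 CPM to 87.3 and 88.2 CPM, and Sdc4 from 206 and 218 CPM to 98.0 and 104 CPM. Vcam1, Fgfr4 and Musk were also lower in both Lin28a+ libraries than in either control library. The sum of the list, 9748 and 10176 CPM in control against 11859 and 12036 CPM in Lin28a+ MuSCs, was higher mainly through Myog and Cdh15. Fibro-adipogenic markers (5 of 10 in the table) summed to 145 and 154 CPM in control against 77.7 and 77.8 CPM in Lin28a+ MuSCs. Nearly all of that sum was Gsn, which fell from 140 and 148 CPM to 63.5 and 64.5 CPM, while Ly6a rose from 3.84 and 4.58 CPM to 13.6 and 12.7 CPM. Mural cell markers (6 of 8) summed to 158 and 154 CPM in control against 256 and 260 CPM, mostly Notch3 and Mcam. Of the 4 mural markers tested 3 were higher and 1 lower, against 28.1% and 28.7% of all genes tested. The lower one was the pericyte marker Rgs5, with 2.38 and 2.09 CPM in control against 0.198 and 0.206 CPM in Lin28a+ MuSCs. Endothelial (2 of 8) and macrophage markers (5 of 10) stayed at or below 3.18 CPM in sum. The part of these differences in the result was not tested.

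None of the 10 mRNAs had a row in a RIP table. The m6A-RIP table holds 18881 rows in 9416 genes, the Igf2bp3-RIP libraries gave 19465 peaks in 4527 genes, and the Lin28a-RIP libraries gave 21616 peaks in 3493 genes. In each, 0 rows were annotated to any of the 10 mRNAs or to any other gene of the mitochondrial genome. In the Igf2bp3-RIP and Lin28a-RIP tables, which give positions, 0 peaks lay on the mitochondrial chromosome. Whether alignments to that chromosome were kept before peaks were called is not given in the sources used here, so a missing row says only that no such peak is listed.

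Nuclear genes of like level had rows in each of these tables, though in smaller shares than all nuclear genes tested. Of the 17 abundant nuclear genes, 15 had an Entrez identifier, and of these 6 had an m6A-RIP row, 2 an Igf2bp3-RIP peak and 1 a Lin28a-RIP peak. Over all nuclear genes tested with such an identifier, 67.5% had an m6A-RIP row, 33.8% an Igf2bp3-RIP peak and 26.1% a Lin28a-RIP peak. Of the nuclear-encoded respiratory subunits, 72.8% had an m6A-RIP row, 9.88% an Igf2bp3-RIP peak and 12.3% a Lin28a-RIP peak. For the 184 genes of mitochondrial gene expression, biogenesis and assembly the shares were 65.8%, 20.1% and 10.9%. Lrpprc, singled out here after its rows had been seen, had 26 Lin28a-RIP peaks, more than 96.9% of the genes in that table, with a median of 3 peaks per gene, and it had 5 Igf2bp3-RIP peaks and 0 m6A-RIP rows.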

How the data were processed

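Input RNA of 2 control and 2 Lin28a+ libraries was analysed. The authors deposited estimated counts per gene for the input and whole-number counts per row or peak for the RIP libraries, none scaled between libraries. The submitters' notes name HISAT2 2.0.4, MACS2 1.4.3 and DESeq2 1.42.0. The program that counted reads and its use of strand are not given in the sources used here. Input values were rounded and tested in R 4.3.3 with edgeR 4.0.16 (quasi-likelihood test, TMM factors, filterByExpr, Benjamini-Hochberg adjustment over all 11317 genes, threshold 0.05). Table sums were 5466147 and 6220960 in control and 5057455 and 4842915 in Lin28a+ MuSCs. Many nuclear genes have decimals as a mean over transcripts would give, so these sums are not read numbers, and shares are shares of the table. The mRNAs and gene lists were chosen with earlier results of these data known. Named nuclear genes are the 3 higher and 3 lower of each list with the smallest p and no overlap between groups, plus Tfam, Polrmt, Lrpprc, Slirp, Ppargc1a and Ppargc1b, and the 3 nearest profiles. Gene positions and names are from RefSeq GRCm38.p6. The study names GRCh38, a human assembly, and the submitters' notes also mm10, which is GRCm38. Of 21611 Lin28a-RIP peaks, 86.1% overlapped their annotated gene at its GRCm38 position. The 2 Lin28a+ columns of the input are named in the table after m6A-RIP libraries and were used as that group with no replicate number. The test was also run on simulated counts, and the outcome is not reported here. Alternatives were DESeq2, other size factors, nuclear-only factors, other filters, other denominators and each library left out. Lin28a was not analysed here.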

Additional observations from a re-analysis of the deposited data

Results flagged for a closer look

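Outside the comparisons above, a Lin28a-RIP peak lay on a nuclear copy of the mitochondrial genome. By its GRCm38 (mm10) position, which the submitters name beside a human assembly, the peak spans chr1:24612637-24613248 (612 bases) and holds 2082 and 2469 counts in the 2 Lin28a-RIP libraries, against medians of 754 and 698 counts over the 21616 peaks of the table, so 85.2% of peaks were lower by mean CPM. It drew attention as counts in data, above the 3 counts that an observed 0 allows, that the comparisons of the 10 mRNAs do not use, and there is no Lin28a-RIP of control MuSCs to set it against. The table annotates it to Col19a1, whose RefSeq gene ends 24715 bases away. RefSeq places the pseudogenes Gm10222 (24612404 to 24612700, 297 bases) and Gm10925 (24613971 to 24614651, 681 bases) around it, with the annotated lengths of mt-Nd4l and mt-Atp6. Projected along the copy from the start of mt-Atp6, Gm10222 falls 1 base from the start of mt-Nd4l, and the peak falls on mitochondrial positions 9330 to 9941, which hold the end of mt-Co3, all of mt-Nd3 and the start of mt-Nd4l. In the same span, from 24612404 to 24614651, 0 Igf2bp3-RIP peaks were listed. Whether its reads came from mitochondrial or nuclear RNA was not tested.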

How the results depend on the processing

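No paired analysis was possible because the numbers in the headers of the 2 Lin28a+ input columns belong to names of m6A-RIP libraries and were not taken as numbers of the input. Counting mt-Co2 apart, 100 of 100 values of single mRNAs under an alternative kept their direction and side of the threshold. The count of 9 lower mRNAs was the same under DESeq2, the other scalings and filters and each library left out, and of the 5 mRNAs whose values are whole and small enough that the table would show decimals, 5 were lower. The median log2 fold change of the 10 ranged from -0.55 to -0.50. For mt-Co2 the log2 fold change ranged from -0.21 to 0.06 with 1 library left out, and it was 0.059 without control replicate 1 and 0.038 without the Lin28a+ library listed first. The difference in share was -6.98 percentage points against nuclear genes alone, -5.99 with the nuclear copies added, -1.44 for these 5 mRNAs, which leave out mt-Co1 (4.97% and 5.05% in control, 3.55% and 3.59% in Lin28a+ MuSCs, a ratio of 0.713 as for the 10), and -5.01 without Gm19220, a pseudogene with 4.31% of control replicate 1 and 2.26% to 2.92% of the others. It ranged from -4.93 to -4.67 with 1 library left out. DESeq2 called fewer of the 184 nuclear genes of mitochondrial gene expression, biogenesis and assembly, 38 higher and 2 lower in place of 104 and 12, and 58 higher and 1 lower nuclear respiratory subunits in place of 71 and 3. The cause was not tested. With 1 library left out, these genes ranged from 79 to 92 higher and from 8 to 10 lower, and nuclear respiratory subunits from 69 to 72 higher and from 2 to 3 lower. With 2 libraries per group, spread is shared among genes and differences between animals are not covered. The relative spread between libraries of a group beyond counting noise was small, at 2.48% in the edgeR fit.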
